A study of Mus musculus with 40 samples.

Results

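Genes that mark steps of adult neurogenesis and cell division, 9 in all, were followed across 40 hippocampal libraries: Dcx, Igfbpl1, Draxin, Sox11, Sox4, Neurod1, Eomes, Mki67 and Top2a. They were chosen by name for what they are known to do, but with earlier results of these data known. All 9 were among the 20953 genes of the deposited expression table. In the adult dentate gyrus, radial glia-like stem cells give rise to dividing intermediate progenitors, which pass through a neuroblast stage and mature into granule cells. Eomes (Tbr2) is a transcription factor of intermediate progenitors, Neurod1 drives granule neuron differentiation, and Sox4 and Sox11 are transcription factors of newborn neurons that act on neuronal genes such as Dcx. Dcx encodes doublecortin, a microtubule-binding protein of neuroblasts and migrating neurons. Mki67 and Top2a, which encode Ki-67 and topoisomerase II alpha, are expressed in dividing cells of any type.

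RNA of dorsal hippocampus punches was sequenced from mice, 1 library per mouse, to compare young and old mice and the effect of deleting Hdac3 with age. Young wildtype mice were 2 to 4 months old and came from an earlier study. Old wildtype mice (HDAC3+/+) and their HDAC3flox/flox littermates were 18 to 20 months old, and both received AAV2.1-CaMKII-Cre in the dorsal hippocampus before behaviour, so the old controls carry the virus as well. In each of the 3 sets, some mice stayed in the homecage (6 young wildtype, 6 old wildtype, 8 old HDAC3flox/flox) and some were killed 60 min after training in object location memory, OLM (6, 6 and 8). The labels give the strain of all mice as C57BL/6J, whereas the methods of the study describe both HDAC3 genotypes as kept on a C57BL/6 background. The CaMKII promoter drives Cre in excitatory neurons, and the punches also hold other cells. No infusion is given for the young mice, so age, study of origin and infusion, and any difference of substrain, cannot be told apart in any difference between old and young. The study reports both sexes in each group. The share of females was highest in the old HDAC3flox/flox groups and lowest in the old wildtype groups, so sex was not balanced between the groups compared. Hdac3 itself averaged 30.0 RPKM (a read count scaled by exon length and by the depth of the library) in old wildtype and 16.2 RPKM in old HDAC3flox/flox homecage mice, and 30.3 and 18.4 RPKM after training. Depth, estimated from the smallest steps in the values, ran from 12.7 to 38.9 M reads, or to 41.1 M with a looser fit that doubled the estimate of old wildtype homecage replicate 4.

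The genes lie, in GENCODE vM21 coordinates of GRCm38 (mm10), as follows. Among the neuroblast genes, Dcx on chromosome X (143855842 to 143933311), Igfbpl1 on chromosome 4 (45809468 to 45826923) and Draxin on chromosome 4 (148098437 to 148130698) are on the minus strand. The transcription factor genes are Sox11 on chromosome 12 (27334264 to 27342574) and Sox4 on chromosome 13 (28948919 to 28953713), each with 1 exon in its longest coding transcript, Neurod1 on chromosome 2 (79452521 to 79456751) with 2 exons, all on the minus strand, and Eomes on chromosome 9 (118478212 to 118486132) on the plus strand. The proliferation genes Mki67 on chromosome 7 (135689784 to 135716361), with 14 exons, and Top2a on chromosome 11 (98992943 to 99024189), with 36, are on the minus strand.

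**Figure D1:**
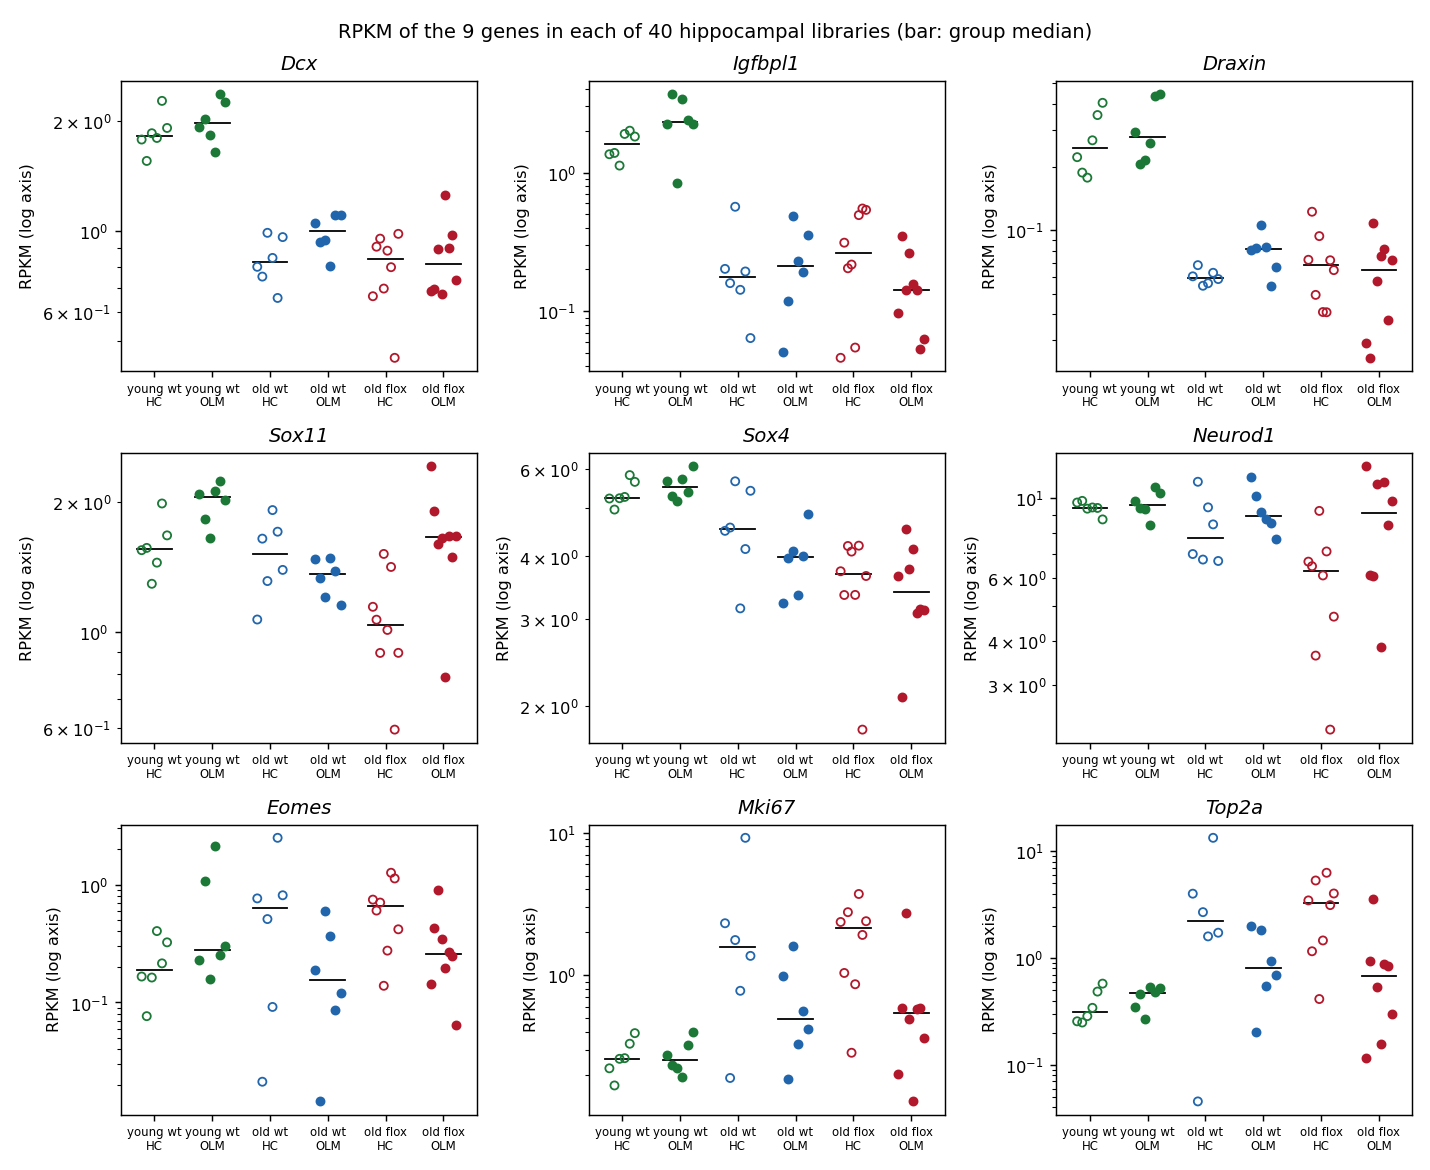
RPKM of each gene on a log axis, with 1 point per library in 6 groups (wt, wildtype; flox, HDAC3flox/flox; HC, homecage) and a bar at the group median. Dcx, Igfbpl1 and Draxin separate young from old mice, whereas Mki67 and Top2a reach their highest values, 9.20 and 13.3 RPKM, in 1 old wildtype homecage library.

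Dcx, Igfbpl1 and Draxin were lower in old than in young wildtype mice, both in the homecage and after training. Dcx in homecage mice ran from 1.55 through a median of 1.82 to 2.27 RPKM in young and from 0.657 through 0.822 to 0.989 RPKM in old wildtype mice. The lowest young library was above the highest old one. The ratio of the means was 2.23, with a difference of -0.82 ± 0.088 (SE, n = 6 and 6) on the log2(RPKM + 0.5) scale (limma, adjusted p = 0.000449; exact permutation p = 0.00216, two-sided, the smallest that 6 against 6 mice allow). After training Dcx ran from 1.64 to 2.36 RPKM in young and from 0.805 to 1.11 RPKM in old wildtype mice, again without overlap, and differed by -0.74 ± 0.086 (limma adjusted p = 0.000192). In bulk tissue, fewer cells of a type and less RNA per cell cannot be told apart.

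Igfbpl1, which encodes an insulin-like growth factor binding protein-like protein found in immature neurons, had the largest ratio of these 3 genes. In homecage mice it ran from 1.12 through 1.6 to 2.00 RPKM in young and from 0.0640 through 0.176 to 0.566 RPKM in old wildtype mice. The groups did not overlap, the means differed 7.22-fold and the log2 difference was -1.55 ± 0.16 (limma adjusted p = 0.000439, exact permutation p = 0.00216). After training the range was 0.838 to 3.67 RPKM in young and 0.0512 to 0.485 RPKM in old wildtype mice, a 10.3-fold ratio of means (log2 difference -1.94 ± 0.24, limma adjusted p = 0.000309). The old libraries held few reads of this gene, an estimated median of 10 (13 with the looser depth fit) against 130 in young homecage mice. Markers of ependyma and choroid plexus, which line and fill the ventricles, were set beside Igfbpl1. Of 8 ependyma genes, 4 were lower and 0 higher in old wildtype homecage mice (median log2 difference -0.71) and 2 were lower after training (-0.58), and 6 of 8 choroid plexus genes were lower in the homecage and 0 after training. Of all genes, 17.2% were called lower in the homecage and 8.26% after training. The group-centred correlation of Igfbpl1 with the ependyma sum was 0.61 over the 28 old and 0.62 over the 12 young libraries, and with the choroid plexus sum 0.39 and 0.50. With the ependyma sum Eomes gave 0.62 in old and 0.67 in young libraries, Top2a 0.59 and 0.70, and Mki67 0.57 and 0.26. Sox4 gave 0.19 and 0.59, and Sox11 -0.18 and 0.53. Dcx gave 0.06 and 0.14, Draxin -0.06 and 0.35, and Neurod1 -0.37 and -0.62. With the choroid plexus sum Sox4 gave 0.40 and 0.56. The other genes ran from -0.14 to 0.27 with that sum in old and from -0.68 to 0.67 in young libraries. The ependyma sum itself overlapped between the ages in the homecage, and its median was higher in old mice. It ran from 10.3 through 29.3 to 55.0 RPKM in young and from 7.23 through 41.3 to 65.0 RPKM in old wildtype mice. The 4 ependyma genes called lower, Ccdc153, Tekt1, Tmem212 and Dynlrb2, averaged 1.43 to 4.43 RPKM in young and 0.623 to 1.02 RPKM in old homecage mice. In old mice the sum therefore came mostly from the other ependyma genes, and the correlations above use this sum. The part of these cells in the level of Igfbpl1 was not tested.

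Draxin, a secreted axon guidance protein, was the lowest of the 9 genes in old mice. In homecage mice it ran from 0.178 through 0.246 to 0.404 RPKM in young and from 0.0546 through 0.0596 to 0.0684 RPKM in old wildtype mice. These groups did not overlap either, and an estimated 4 to 9 reads per old library (up to 12 with the looser depth fit) stood against 23 to 61 per young library. The ratio of means was 4.47, while the difference after adding 0.5 RPKM was -0.45 ± 0.080 (limma adjusted p = 0.00295, exact permutation p = 0.00216), since the added 0.5 exceeds all Draxin values and shrinks the change. After training the ratio was 3.92 (log2 difference -0.47 ± 0.086, limma adjusted p = 0.0033).

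Sox11 and Sox4 differed between the ages in trained mice, whereas in the homecage their difference did not pass the test. Sox11 in trained mice ran from 1.65 through 2.05 to 2.24 RPKM in young and from 1.15 through 1.36 to 1.49 RPKM in old wildtype mice. Sox4 ran from 5.17 through 5.52 to 6.08 RPKM in young and from 3.23 through 3.99 to 4.88 RPKM in old. Neither pair of groups overlapped, and the log2 differences were -0.43 ± 0.078 for Sox11 (limma adjusted p = 0.0032) and -0.46 ± 0.084 for Sox4 (limma adjusted p = 0.0033), each with an exact permutation p of 0.00216. In homecage mice both genes overlapped between the ages, with log2 differences of -0.06 for Sox11 (95% interval -0.31 to 0.18) and -0.23 for Sox4 (-0.47 to 0.01; limma adjusted p = 0.122). The Sox4 call in the homecage depended on the scaling and on single mice. It was made with median-ratio scaling (-0.28), with quantile normalization and without old wildtype homecage replicate 3 or 6. Sox11 was also called lower in the homecage with quantile normalization. The test of whether the age difference of Sox11 changed with training gave -0.37 ± 0.14 (limma adjusted p = 0.516), and that of Sox4 gave -0.23 ± 0.14 (limma adjusted p = 0.538), so neither difference between the 2 conditions passed.

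Neurod1 was the most abundant of the 9 genes and did not pass the test between the ages. Its homecage range was 8.73 to 9.84 RPKM in young and 6.68 to 11.1 RPKM in old wildtype mice (log2 difference -0.21 ± 0.11, limma adjusted p = 0.161), and its trained means were 9.68 and 9.28 RPKM. The homecage result depended on the setting: Neurod1 was called lower with quantile normalization (-0.38, limma adjusted p = 0.0471), with weights for libraries (-0.35, adjusted p = 0.00252), without old wildtype homecage replicate 2 (-0.29, adjusted p = 0.015) and without replicates 2 and 5 (-0.33, adjusted p = 0.0116). Eomes did not pass either, and its sign was opposite in the 2 conditions. In homecage mice Eomes ran from 0.0765 through 0.190 to 0.403 RPKM in young and from 0.0213 through 0.636 to 2.49 RPKM in old wildtype mice (log2 difference 0.58 ± 0.35, limma adjusted p = 0.207), and it was called higher with weights for libraries (0.64, adjusted p = 0.0322) and without old wildtype homecage replicate 2 (0.79, adjusted p = 0.062). In trained mice it ran from 0.158 through 0.276 to 2.12 RPKM in young and from 0.0145 through 0.154 to 0.591 RPKM in old (-0.55 ± 0.33, limma adjusted p = 0.301). The high young values came from replicates 2 and 4 of the trained group, of which replicate 4 also held the highest summed choroid plexus genes (9260 RPKM). The part of that tissue in the Eomes values was not tested.

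Mki67 and Top2a went the other way and were higher in old wildtype homecage mice. Mki67 ran from 0.169 through 0.261 to 0.393 RPKM in young and from 0.191 through 1.57 to 9.20 RPKM in old wildtype homecage mice. Top2a, whose product untangles chromosomes at mitosis, ran from 0.249 through 0.314 to 0.576 RPKM in young and from 0.0455 through 2.21 to 13.3 RPKM in old. In both genes 5 of the 6 old libraries lay above all young homecage ones, and old wildtype homecage replicate 2 lay within or below the young range. The log2 differences were 1.49 ± 0.48 for Mki67 (limma adjusted p = 0.0302, exact permutation p = 0.013) and 1.72 ± 0.57 for Top2a (limma adjusted p = 0.035, exact permutation p = 0.0152). Both calls were kept when any 1 mouse was left out, and both were lost on RPKM without logs (adjusted p of 0.164 and 0.147), where old wildtype homecage replicate 5 holds the highest values. After training the differences were 0.51 ± 0.23 (limma adjusted p = 0.166) and 0.58 ± 0.27 (limma adjusted p = 0.174), and neither passed, except without old wildtype trained replicate 2 or 4 or with weights for libraries.

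Counted together, 3 of the 9 genes were lower and 2 higher in old wildtype homecage mice at p under 0.05 and an adjusted p under 0.15. Of the 16340 genes tested, 47.4% were called in this comparison (17.2% lower, 30.2% higher), so a call by itself was common. The split of all genes depended on the scaling, with 4939 higher and 2803 lower on RPKM as deposited, 4005 and 3788 with median-ratio scaling, and 2782 and 5814 with quantile normalization, which moved the median of all genes from 0.04 to -0.10. Dcx, Igfbpl1 and Draxin were called lower and Mki67 and Top2a higher under both. Groups did not overlap for 3 of the 9 genes and for 13.2% of all genes. In trained mice 5 of the 9 were lower and 0 higher, against 25.8% of all genes called (8.26% lower, 17.5% higher), and 5 of the 9 did not overlap, against 8.86% of all genes. The trained split was 2862 higher and 1350 lower, 2547 and 1834 with median-ratio scaling, and 2017 and 3435 with quantile normalization. The median log2 difference of the 9 genes was -0.21 in the homecage and -0.46 after training, and that of all genes 0.04 and 0.02. Because the 9 genes were chosen with earlier results of these data known, these counts describe them and do not test them as a set.

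**Figure D2:**
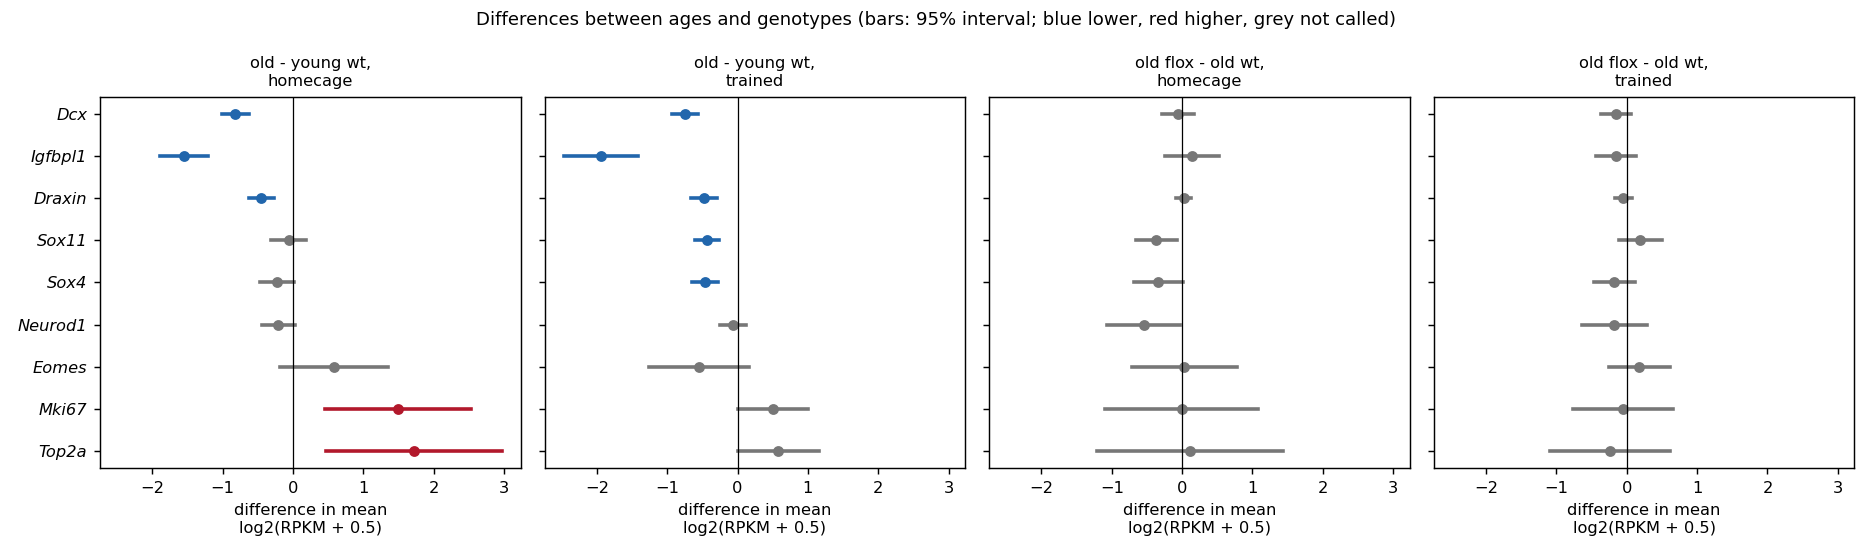
Differences in mean log2(RPKM + 0.5) with 95% intervals for 4 comparisons (wt, wildtype; flox, HDAC3flox/flox). Igfbpl1 lies lowest in both comparisons of old with young mice, at -1.55 and -1.94, and the intervals of the comparisons of HDAC3flox/flox with old wildtype mice are grey because 0 of 9 genes was called.

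Other genes of the same roles were counted from lists set by known function. Of 28 other cell cycle genes, 21 were higher and 0 lower in old wildtype homecage mice, with a median log2 difference of 0.78. That is 75.0% called, against 47.4% of all genes. They include Mcm3, a subunit of the replicative helicase (4.90 against 1.32 RPKM, log2 difference 1.34 ± 0.35, limma adjusted p = 0.0124), and Pcna, the DNA polymerase clamp (16.9 against 12 RPKM, 0.44 ± 0.13, adjusted p = 0.0181). The count fell to 10 on RPKM without logs and ranged from 16 to 28 when 1 mouse was left out. In trained mice 6 of the 28 were higher and 0 lower (21.4% called, against 25.8% of all genes), with a median of 0.20, and leaving out 1 mouse gave 3 (without old wildtype trained replicate 1 or 3, or young trained replicate 1, 2 or 6) to 15 (without old wildtype trained replicate 2). With 1 model of all 40 libraries the trained count was 0.

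**Figure D3:**
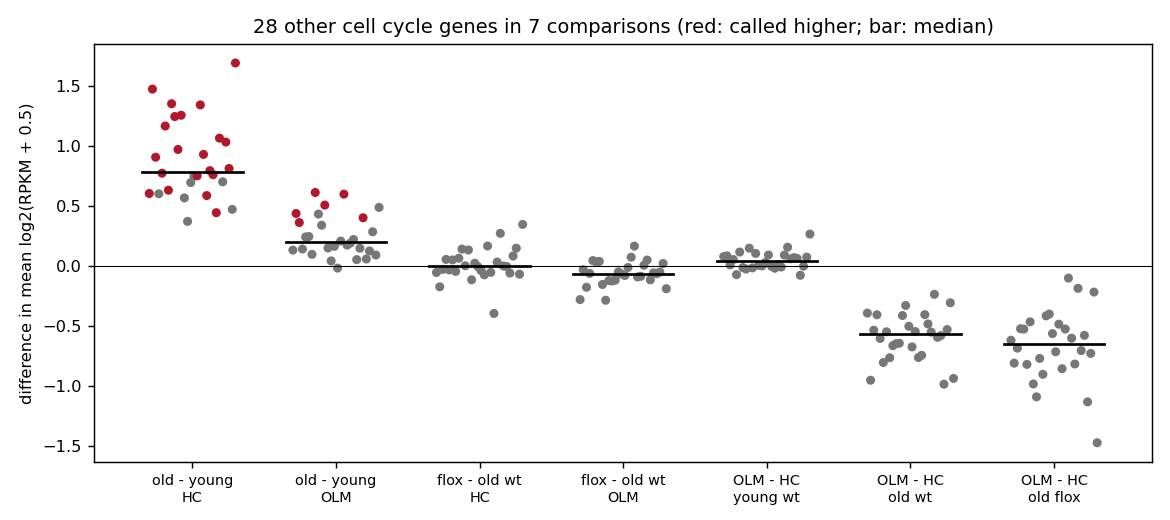
Differences in mean log2(RPKM + 0.5) of 28 other cell cycle genes, 1 point per gene, in 7 comparisons, with a bar at the median (HC, homecage; OLM, trained; red, called higher). The medians are 0.78 and 0.20 between old and young mice, and -0.57 and -0.65 between trained and homecage mice of the 2 old genotypes, where no gene was called.

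Of 15 tested stem cell and progenitor genes, 3 were higher and 7 lower in old wildtype homecage mice (66.7% called, against 47.4% of all genes). Neurog2, a proneural transcription factor, fell from 0.506 to 0.109 RPKM (log2 difference -0.74 ± 0.10, limma adjusted p = 0.00103), and Hes5, a Notch target of stem cells, fell from 4.60 to 1.90 RPKM (-1.22 ± 0.27, adjusted p = 0.00659). Vim, an intermediate filament gene that reactive astrocytes also express, rose from 23.4 to 207.2 RPKM (2.70 ± 0.57, adjusted p = 0.00494). Of 19 tested neuroblast and immature neuron genes, 6 were lower and 1 higher. That is 36.8% called, below the 47.4% of all genes, with 31.6% lower against 17.2% of all genes. Neurod6, 1 of the 6 (89.1 against 119.8 RPKM), is also on the list of hippocampal pyramidal cell markers. Of the 6 pyramidal cell markers, 2 were lower and 0 higher in the homecage, and 3 were lower and 2 higher after training. Dpysl3, a cytosolic protein of growth cones, fell from 9.06 to 5.34 RPKM (-0.72 ± 0.097, adjusted p = 0.000987), and Gap43, a growth cone protein also made by mature neurons, fell from 73.4 to 37.6 RPKM (-0.99 ± 0.17, adjusted p = 0.00256). In trained mice the counts were 2 higher and 6 lower of the 15, and 2 higher and 7 lower of the 19. That is 53.3% and 47.4% called, against 25.8% of all genes (8.26% lower, 17.5% higher).

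T cell genes moved with the proliferation genes in old mice. The 9 T cell genes in the table (Cd3e, Cd3d, Cd3g, Cd8a, Cd8b1, Cd4, Cd2, Lck and Nkg7) were all called higher in old wildtype mice. The count was 9 of 9 in the homecage (median log2 difference 2.41) and 9 of 9 after training (1.52, with 3 to 9 of 9 under the other settings). Of all genes, 30.2% were called higher in the homecage and 17.5% after training. Their summed level was 0.477 to 1.04 RPKM in young homecage, 0.585 to 0.926 in young trained, 1.04 to 112.5 in old wildtype homecage, 3.97 to 48.2 in old wildtype trained, 7.63 to 107.8 in old HDAC3flox/flox homecage and 3.90 to 92.5 in old HDAC3flox/flox trained mice. Cd3g, a subunit of the T cell receptor complex, was at 0 in 2 of 6 young homecage and 6 of 6 young trained libraries, and in none of the old wildtype ones. Old wildtype homecage replicate 5 held the highest T cell sum and the highest Mki67, Top2a and Eomes of its group, and replicate 2 the lowest of all 4. Across the 28 old libraries, with group means removed, the correlation with the T cell sum on the log2 scale was 0.87 for Mki67, 0.86 for Top2a and 0.91 for Eomes, which is also a transcription factor of cytotoxic T cells and natural killer cells. It was -0.07 for Dcx, 0.31 for Igfbpl1 and 0.09 for Draxin. In the 12 young libraries the correlation was -0.30 for Mki67, 0.02 for Top2a and 0.23 for Eomes. With the ependyma sum, the old libraries gave 0.57 for Mki67, 0.59 for Top2a and 0.62 for Eomes. These values share library, tissue punch and scaling. The part of T cells or ependyma in the levels of Mki67, Top2a and Eomes was not tested. Microglia genes also differed between old and young wildtype homecage mice, 7 of 10 higher and 1 lower with a median of 1.21, while 6 of 10 oligodendrocyte precursor genes were lower and 2 higher. Of all genes, 30.2% were called higher and 17.2% lower there. The old mice received the virus and no infusion is given for the young, so age, infusion and study of origin cannot be told apart in these differences or those of the T cell genes.

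**Figure D4:**
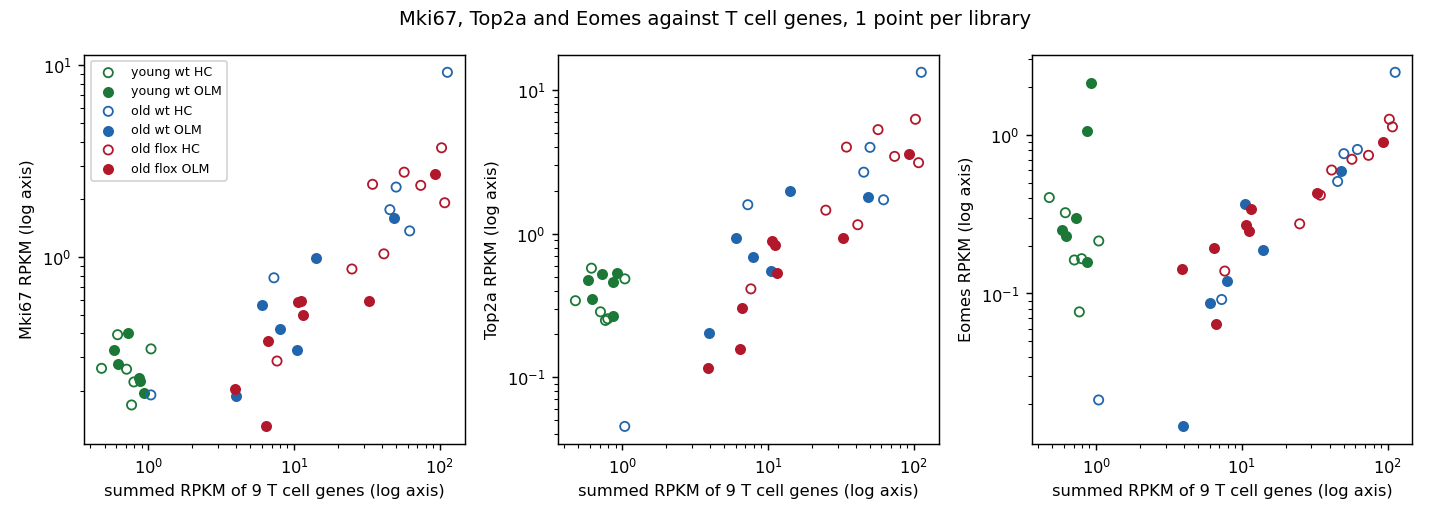
RPKM of Mki67, Top2a and Eomes against the summed RPKM of 9 T cell genes, both on log axes, 1 point per library (wt, wildtype; flox, HDAC3flox/flox). Young libraries sit at sums of at most 1.04 RPKM, and the old libraries rise with the sum up to 112.5 RPKM.

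Mki67 and Top2a followed each other closely over all 40 libraries, with a correlation of 0.97 on group-centred log2 values. The other genes most like Mki67 were 2810417H13Rik, Kif11, Ccna2, Lmnb1, Uhrf1, Smc4 and Prc1, at 0.956 to 0.946. Dcx had no such partner among the 9 genes, with 0.51 to Sox4 and -0.01 to Mki67, and the genes most like it were Myo16 (0.80), Dgkq (0.77), Lpgat1 (0.75) and Dlc1 (0.75). The promoters of Mki67 and Top2a are shown because these genes moved together. Capitals mark CCAAT boxes (CCAAT or ATTGG) and 2 cell cycle homology region motifs (TTTGAA or TTCAAA, and TTCGAA), searched on both strands in the 250 bases before and 50 after the RefSeq start site (build GRCm38.p6, minus strand). The Mki67 window is chr7:135716330-135716629 and the Top2a window chr11:99024140-99024439.
Mki67: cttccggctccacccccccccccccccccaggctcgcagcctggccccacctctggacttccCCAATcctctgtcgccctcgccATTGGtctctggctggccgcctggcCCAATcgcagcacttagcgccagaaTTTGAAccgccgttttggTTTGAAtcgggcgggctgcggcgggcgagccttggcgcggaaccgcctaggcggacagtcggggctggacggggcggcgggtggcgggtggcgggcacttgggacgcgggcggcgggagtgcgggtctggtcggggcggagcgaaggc
Top2a: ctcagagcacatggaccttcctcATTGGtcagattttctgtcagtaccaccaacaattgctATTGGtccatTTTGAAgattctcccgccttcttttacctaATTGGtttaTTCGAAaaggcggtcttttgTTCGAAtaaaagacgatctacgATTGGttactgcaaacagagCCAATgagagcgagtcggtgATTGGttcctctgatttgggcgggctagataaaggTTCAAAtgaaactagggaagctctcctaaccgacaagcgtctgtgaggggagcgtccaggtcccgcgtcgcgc
The Mki67 window holds 3 CCAAT boxes and 2 TTTGAA motifs, and the Top2a window 6 CCAAT boxes, 2 TTTGAA and 2 TTCGAA motifs. Among 32851 RefSeq promoters of this length, 37.4% hold a CCAAT box, 17.9% TTTGAA and 1.56% TTCGAA. Of the windows of the other genes, those of Dcx, Sox11, Sox4 and Eomes hold CCAAT boxes, that of Sox11 also a TTTGAA motif, and those of Neurod1 and Draxin none of the 3. Igfbpl1 had no promoter entry.

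None of the 9 genes passed the test between old HDAC3flox/flox and old wildtype mice, in the homecage or after training. In the homecage 0 of 9 was called, against 0.0979% of all genes (16 of 16340, with 2001 genes at an unadjusted p under 0.05). Sox11 ran from 1.07 through 1.52 to 1.92 RPKM in old wildtype and from 0.596 through 1.04 to 1.52 RPKM in old HDAC3flox/flox homecage mice. These groups overlapped, with a log2 difference of -0.36 ± 0.14 (p = 0.0195, limma adjusted p = 0.347, exact permutation p = 0.0213). Neurod1 ran from 6.68 through 7.72 to 11.1 RPKM in old wildtype and from 2.26 through 6.27 to 9.22 RPKM in old HDAC3flox/flox homecage mice, with a log2 difference of -0.55 ± 0.24 (limma adjusted p = 0.394). Sox4 differed by -0.34 ± 0.16 (limma adjusted p = 0.426). In 1 model of all 40 libraries, Sox11, Neurod1 and Sox4 were called lower (adjusted p of 0.107, 0.129 and 0.15), where 9.41% of all genes were called.

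Neurod1 and Sox11 moved with markers of mature dentate granule cells in these mice. All 10 granule cell markers were lower in old HDAC3flox/flox than in old wildtype homecage mice, with a median log2 difference of -0.93 and 0 called. Their summed level ran from 25.6 to 294.0 RPKM in HDAC3flox/flox and from 164.5 to 296.8 RPKM in old wildtype homecage mice. Over the 28 old libraries the group-centred correlation with that sum was 0.94 for Neurod1, 0.82 for Sox11, 0.23 for Sox4 and -0.11 for Dcx. Over the 12 young libraries it was 0.73 for Neurod1, -0.15 for Sox11, -0.13 for Sox4 and 0.39 for Dcx. Old HDAC3flox/flox homecage replicate 7 had the lowest granule cell sum and the lowest Neurod1 and Sox4 of its group, at 2.26 and 1.8 RPKM. How much of the dentate gyrus each punch held was not tested.

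Dcx, Igfbpl1 and Draxin were below the young range in HDAC3flox/flox mice too, and did not pass the test between the old genotypes. Dcx had medians of 0.840 RPKM in homecage and 0.814 RPKM in trained HDAC3flox/flox mice, and its difference from old wildtype was -0.05 in the homecage (95% interval -0.28 to 0.17) and -0.15 after training (-0.37 to 0.06). Igfbpl1 differed by 0.14 (-0.25 to 0.53) and -0.15 (-0.44 to 0.14), and Draxin by 0.02 (-0.09 to 0.13) and -0.05 (-0.17 to 0.08). The highest HDAC3flox/flox library was below the lowest young homecage library in all 3 genes, at 1.26 against 1.55 RPKM for Dcx. These 3 are the genes that already separated old from young wildtype homecage mice, where 13.2% of all genes did not overlap. The share of all genes that separate HDAC3flox/flox from young mice was not counted. Mki67 and Top2a differed little in the mean with wide intervals, -0.01 (-1.10 to 1.08) and 0.11 (-1.21 to 1.44) in the homecage. After training 0 of 9 genes was called against 0.239% of all genes (39 of 16340, with 758 at an unadjusted p under 0.05), and every adjusted p was 1.0.

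Training was compared with the homecage within each set of mice, and none of the 9 genes was called in any of the 3. In young wildtype mice 0.435% of all genes were called (71 of 16340). Sox11 was the gene nearest the threshold there, from 1.3 through 1.56 to 1.98 RPKM in the homecage and from 1.65 through 2.05 to 2.24 RPKM after training. Its groups overlapped, and the log2 difference was 0.26 ± 0.082 (p = 0.00864, limma adjusted p = 0.324, exact permutation p = 0.0152). Among the settings tried it was called only with weights for libraries (0.29, adjusted p = 0.0863).

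In old wildtype mice 0% of all genes were called by limma (1283 at an unadjusted p under 0.05). Mki67 averaged 2.61 RPKM in the homecage and 0.683 RPKM after training, and Top2a 3.90 and 1.03 RPKM, with log2 differences of -0.98 ± 0.52 and -1.02 ± 0.62 (limma adjusted p = 0.545 for both). The 28 other cell cycle genes all had a lower mean after training, with a median of -0.57 and 0 called. The 9 T cell genes had a median of -0.98 between the same groups, with 0 called.

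In old HDAC3flox/flox mice 0% of all genes were called by limma as well (2807 at an unadjusted p under 0.05), although several of the 9 genes had a p under 0.05. Top2a ran from 0.413 through 3.30 to 6.28 RPKM in the homecage and from 0.117 through 0.684 to 3.59 RPKM after training. The groups overlapped, with a log2 difference of -1.38 ± 0.43 (p = 0.00564, limma adjusted p = 0.24, exact permutation p = 0.0135, n = 8 and 8). Mki67 differed by -1.02 ± 0.35 (limma adjusted p = 0.24), Eomes by -0.47 ± 0.21 (limma adjusted p = 0.276), Sox11 by 0.45 ± 0.15 (limma adjusted p = 0.24) and Neurod1 by 0.55 ± 0.26 (limma adjusted p = 0.295). All 5 were called when old HDAC3flox/flox homecage replicate 4, the lowest T cell sum and the highest granule cell sum of its group, was left out, when 15.8% of all genes were called. All 9 T cell genes had a lower mean after training in this comparison (median -1.42) and all 10 granule cell markers a higher one (median 0.74), with 0 called in either list. The part of either cell type in the 5 genes was not tested.

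**Figure D5:**
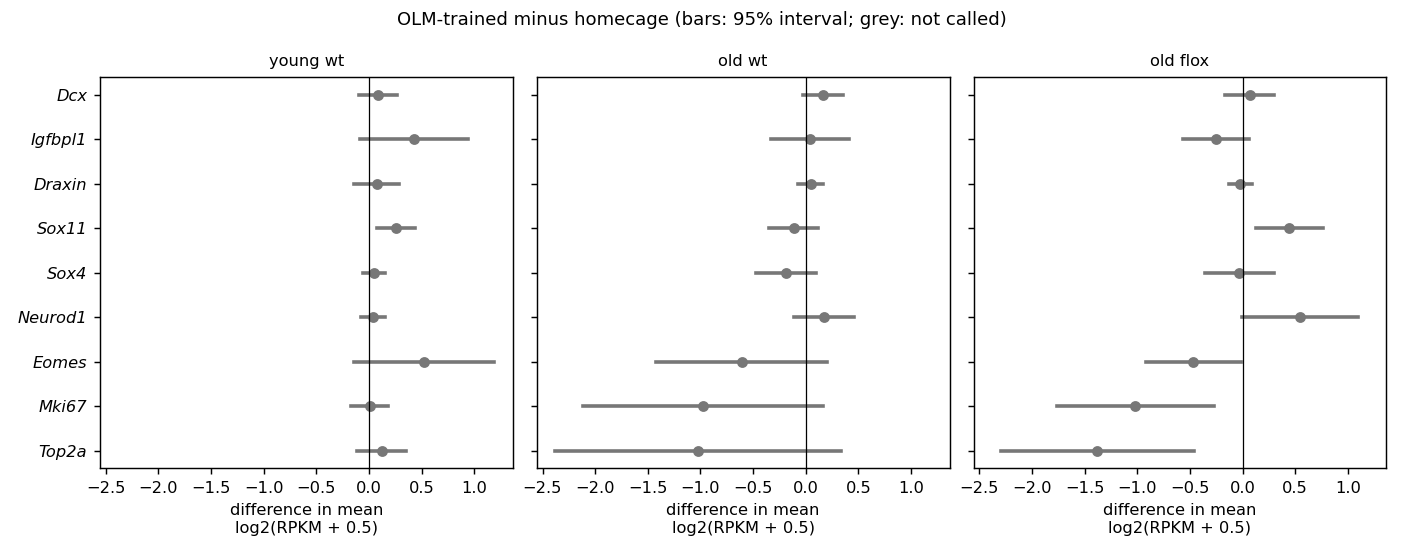
Difference in mean log2(RPKM + 0.5) between OLM-trained and homecage mice of each set, with 95% intervals (wt, wildtype; flox, HDAC3flox/flox). Top2a and Mki67 lie at -1.38 and -1.02 in old HDAC3flox/flox mice and Sox11 at 0.45, and 0 of 9 genes was called in any panel.

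The training effect itself was compared between sets, where the homecage and trained old wildtype mice serve both comparisons. For Sox11 it differed by -0.37 ± 0.14 between old and young wildtype mice (limma adjusted p = 0.516) and by 0.56 ± 0.20 between old HDAC3flox/flox and old wildtype mice (limma adjusted p = 0.998). For Eomes the difference between old and young wildtype mice was -1.13 ± 0.50 (limma adjusted p = 0.516). None of the 9 genes was called in either comparison, where limma called 0% of all genes (1573 and 704 at an unadjusted p under 0.05).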

How the data were processed

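RNA with an integrity number that passed the study's limit was made into poly-A TruSeq libraries and sequenced as single reads of 50 bases. The authors made the deposited RPKM values: reads filtered with CASAVA 1.8.2 were mapped to mm10 with both ELAND and Bowtie, reads that either could not place uniquely were dropped, and the rest were scaled by exon length and depth. The tables hold no read counts. The authors' own comparison columns, p-values from Cyber-T, were not used.

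RPKM of 40 libraries was analysed on the log2(RPKM + 0.5) scale, over 16340 genes whose mean reached 0.1 RPKM, with limma 3.58.1 in R 4.3.3 (empirical Bayes with trend), fitting for each comparison the groups it names and no others. Calls were made at p under 0.05 and Benjamini-Hochberg adjusted p under 0.15. The script was tested on simulated data. Single genes were also tested by exact permutation, two-sided and unadjusted. Groups came from the sample titles. The labels give no sex or batch per library, so neither entered a fit. No libraries were identical (highest correlation 0.996).

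Depth was estimated from the common step of the 80 lowest values of 735 short-RNA genes, taking a step as 1 base of a read. The step was first fitted with a tolerance of 0.05 and then, after those estimates were seen, with 0.02. The change moved 1 of 40 libraries by over 5%: old wildtype homecage replicate 4 went from 41.1 to 20.6 M reads, and which is right was not settled. Estimated reads per gene use the longest coding GENCODE vM21 transcript and are approximate, and no test uses depth. Promoters came from RefSeq (GRCm38.p6), with 8 of 9 genes matched.

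The genes, lists and tests were chosen with earlier results of these data known. All 9 genes are described. From each list the text draws on the 4 genes, or fewer, that ranked first by p in the homecage comparison of old with young mice, and on the 8 genes most correlated with Dcx and with Mki67 (mean RPKM of at least 0.5). Alternatives covered pseudocounts, filters, scaling, weights, 1 model of all libraries, RPKM without logs and leaving out mice. Python 3.11.15 served for the rest.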

Additional observations from a re-analysis of the deposited data

Results flagged for a closer look

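In 8 of 54 sets of 1 gene in 1 group, a single library lay far from the others of its group (Dixon's test at 95% on RPKM without logs). The test flags about 1 in 20 groups by chance where values are normally distributed. That rate need not hold for skewed RPKM, and flags of genes that move together, such as Mki67 and Top2a, are not independent. Most fell on 2 libraries. Old wildtype homecage replicate 5 held Mki67 at 9.20 RPKM (others 0.191 to 2.32), Top2a at 13.3 RPKM (0.0455 to 4.00) and Eomes at 2.49 RPKM (0.0213 to 0.810). Old HDAC3flox/flox trained replicate 3 held Mki67 at 2.73 RPKM (0.131 to 0.591), Top2a at 3.59 RPKM (0.117 to 0.934) and Eomes at 0.903 RPKM (0.0645 to 0.428). Both libraries also held the highest T cell sum of their group, 112.5 and 92.5 RPKM. Igfbpl1 stood at 0.566 RPKM in old wildtype homecage replicate 3 (others 0.0640 to 0.202). Sox4 stood at 1.8 RPKM in old HDAC3flox/flox homecage replicate 7 (others 3.35 to 4.21), the library with the lowest granule cell sum, 25.6 RPKM.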

How the results depend on the processing

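Dcx, Igfbpl1 and Draxin were called lower in old than in young wildtype mice under each setting that tested them and with any 1 mouse left out, in both conditions, with log2 differences of -1.07 to -0.64, -2.52 to -1.09 and -1.17 to -0.26 in the homecage. Of the 9 genes, 5 were called in that comparison, 8 with quantile normalization (52.6% of all genes called) and 3 on RPKM without logs (45.9%). Quantile normalization also turned the split of all genes from 4939 higher and 2803 lower to 2782 higher and 5814 lower, and called Sox11, Sox4 and Neurod1 lower. The comparison of old HDAC3flox/flox with old wildtype homecage mice went from 0 to 3 genes in 1 model of all 40 libraries (9.41% of all genes). Training in young mice went from 0 to 1 with weights for libraries (6.95%). Training in old HDAC3flox/flox mice went from 0 to 4 in 1 model of all libraries (24.3%) and 6 with weights (47.6%). The difference of the training effect between old and young wildtype mice went from 0 to 5 with weights (22.5%), and to 1 without old wildtype homecage replicates 2 and 5 (5.79%), an alternative chosen after seeing the data; the other alternatives so chosen left out young trained replicates 2 and 4, and old HDAC3flox/flox homecage replicate 7 with a trained mouse. The causes were not tested. Leaving out 1 mouse gave 5 to 7 genes in each comparison of old with young mice. With all mice, 47.4% of all genes were called there in the homecage and 25.8% after training. The same step gave 0 to 1 for training in old wildtype mice (Top2a, without homecage replicate 2, with 10.8% of all genes called), 0 to 5 for training in HDAC3flox/flox mice (5 without homecage replicate 4, with 15.8%, and 4 without trained replicate 3, with 21.9%), 0 to 4 for the difference of the training effect between the ages (4 without old wildtype homecage replicate 2, with 15.6%) and 0 to 0 in the other comparisons. No paired analysis was possible because the labels give no numbers that pair mice across groups. Depth is estimated only, and limits Draxin, Igfbpl1 and Eomes most.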
